A study of Mus musculus with 5 samples.

Results

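Semaphorins and ephrins, the ligands, and plexins, neuropilins and Eph receptors, the receptors that read them, were compared between control oviductal stromal cells and cells labelled as Esr1 conditional knockouts. The members were all genes whose symbols belong to these families: 20 semaphorins, 8 ephrins, 9 plexins, 2 neuropilins and 14 Eph receptors, 53 of the 23857 genes listed. Stromal cells positive for the YFP reporter had been isolated by sorting, and RNA of each sample was sequenced in bulk. The tissue was the fallopian tube, or oviduct, and the donors were young adult female mice. The 2 control libraries came from Pdgfra-Cre;R26Y mice 2 and 3, here C2 and C3. The 3 others came from Pdgfra-Cre;Esr1(fl/fl);R26Y mice 1, 2 and 3, here K1, K2 and K3. All 5 mice thus carried Pdgfra-Cre, a recombinase expressed under the promoter of the mesenchymal gene Pdgfra, and the R26Y reporter that it switches on, and the groups differ by floxed alleles of Esr1, which encodes estrogen receptor alpha. Deletion is expected only in cells in which Pdgfra has been active.

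Semaphorins are secreted or membrane-bound guidance proteins that signal through plexins. Most class 3 semaphorins, which are secreted, bind a neuropilin that forms a complex with a plexin, and the plexin acts inside the cell on small GTPases and the cytoskeleton. Ephrins stay on the cell surface, A-type by a lipid anchor and B-type by a transmembrane segment, so that they meet Eph receptor tyrosine kinases on a touching cell. Both systems were first known from growing axons and also act in blood and lymphatic vessels, in epithelia and at borders between cell layers.

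Levels are TPM, transcript amounts scaled for gene length and to a sum of 1000000 in each library, so genes can be compared with each other. In C2 and C3, 19061 and 19432 genes reached 1 TPM, against 17148, 18190 and 15841 in K1, K2 and K3. Each library labelled knockout thus had fewer such genes than both controls, and K3 had the fewest. TPM keeps no total depth, so the number of reads behind a value is unknown. Esr1 was examined first. It was at 83.3 and 77.6 TPM in C2 and C3, at 28.9 TPM in K1, at 85.0 TPM in K2 and at 170 TPM in K3, so only K1 lay below the controls. K2 and K3 go against their label on this measure, which does not show whether floxed exons are missing, and every direction below refers to libraries labelled knockout. Stromal markers (9 of 9 listed) summed to 24928 and 20124 TPM in C2 and C3 and to 17168, 13152 and 15199 TPM in K1, K2 and K3. Epithelial markers (10 genes, among them Epcam and Ovgp1) summed to 2977 and 3265 TPM in C2 and C3, to 2099.9 TPM in K1, and to 11938 and 13078 TPM in K2 and K3. Most of each sum was Ovgp1, the oviductal glycoprotein, and the other 9 summed to 704 and 802 TPM in C2 and C3 and to 578, 1282 and 1820 TPM in K1, K2 and K3. Pdgfra, whose promoter drives the Cre, was at 225 and 188 TPM in C2 and C3 and ranged from 165 to 298 TPM in the other libraries. In such bulk samples, fewer cells of a type and less RNA per cell cannot be told apart.

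All 53 genes were detected: none was at 0 in any library, and between 50 and 52 of them reached 1 TPM in each. In bulk samples that also hold markers of other cell types, this does not show which cells express them. All 53 passed the filter for testing, 1 TPM or more in 2 or more of the libraries. Of these, 0 differed between the groups at an adjusted p under 0.05 (limma on log2(TPM + 1), adjusted over 19292 genes). The background was 0.0259%, or 5 of 19292 genes. At an unadjusted p under 0.05 there were 8 members, 15.1% of the 53, beside 13.6% of all tested genes. Their share was thus near the background in this fit, and further above it in several alternatives given at the end. By direction, 3 were higher in the libraries labelled knockout (Epha4, Nrp2 and Sema3d; background 3.7%) and 5 were lower (Plxna4, Ephb1, Epha3, Epha10 and Efna2; background 9.87%). The groups did not overlap for 26 members, 49.1%, beside 33.9% of all tested genes. Of the 26, 9 lay above both controls (background 11.9%) and 17 below (background 21.9%).

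Among the ligands, semaphorins covered the widest range of levels, from a mean over the 5 libraries of 1.64 TPM for Sema4f to 128 TPM for Sema5a. Sema5a, a transmembrane semaphorin with thrombospondin repeats, was at 120.1 and 143 TPM in C2 and C3 and at 161, 118 and 97.7 TPM in K1, K2 and K3. The groups overlapped, with K1 highest and K3 lowest (log2 fold change -0.09, standard error 0.24, limma adjusted p 0.865). Sema3c, a secreted semaphorin that binds neuropilins, was at 77.0 and 70.8 TPM in the controls, at 75.1 TPM in K1 and at 118 and 143 TPM in K2 and K3. K1 thus lay between the controls while K2 and K3 stood above every other library (log2 fold change 0.55, standard error 0.28, limma adjusted p 0.421). The leading semaphorin thus differed between libraries. Sema5a held 25.1%, 28.4% and 33.6% of summed semaphorin TPM in C2, C3 and K1 against 16.1%, 14.1% and 15.7% for Sema3c. In K2 and K3 Sema3c held 22.0% and 26.1% against 21.8% and 17.8% for Sema5a.

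**Figure D1:**
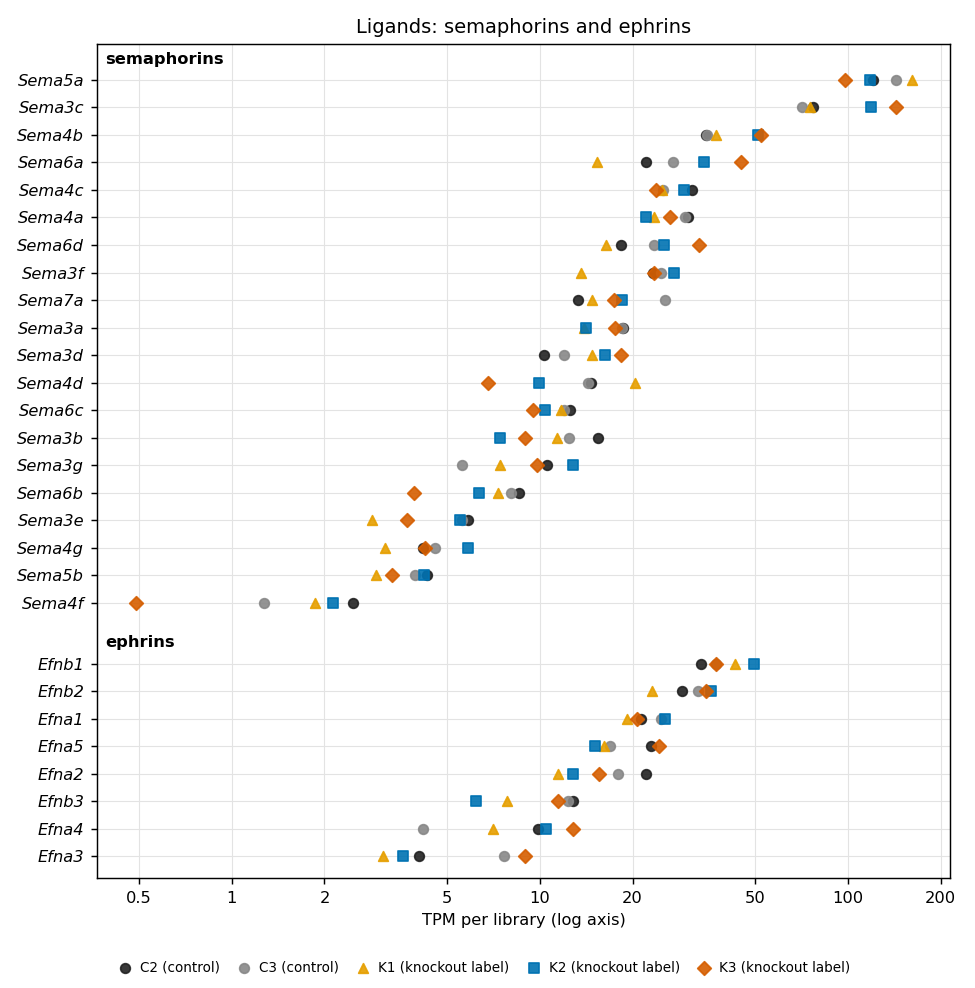
TPM per library (log axis) for the 20 semaphorins and 8 ephrins, ordered by mean level within each family. Circles are the 2 controls, and the triangle, square and diamond are K1, K2 and K3. Sema5a and Sema3c lead the semaphorins, and for Sema3c and Sema4b the squares and diamonds lie to the right of the other libraries.

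Sema4b, a transmembrane class 4 semaphorin, was the third in level. It was at 34.6 and 34.8 TPM in the controls, 37.2 TPM in K1 and 51.2 and 52.4 TPM in K2 and K3. All 3 libraries labelled knockout lay above the controls, K1 by little (log2 fold change 0.41, standard error 0.20, limma adjusted p 0.412). Sema3d, also secreted, was at 10.3 and 12.0 TPM in the controls against 14.8, 16.3 and 18.3 TPM in K1, K2 and K3. Here the 3 libraries were evenly above both controls (log2 fold change 0.52, standard error 0.19, limma unadjusted p 0.0315 and adjusted p 0.338).

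The secreted class 3 semaphorins were mixed in direction. Of the 7, the fold change was positive for 3 (Sema3c, Sema3d and Sema3g) and negative for 4, with a median of -0.21 on the log2 scale. The median was positive, 0.068, without K1 and 0.015 with library weights. Sema3b was at 15.5 and 12.4 TPM in the controls against 11.4, 7.43 and 8.97 TPM in K1, K2 and K3, below both controls in all 3 (log2 fold change -0.55, limma adjusted p 0.374). Sema3a, the best known axon repellent of the class, was at 18.7 and 18.5 TPM in the controls against 13.9, 14.2 and 17.6 TPM in K1, K2 and K3. Sema3e, a ligand of Plexin-D1 that needs no neuropilin, was at 5.84 and 5.58 TPM in the controls against 2.86, 5.49 and 3.71 TPM in K1, K2 and K3. Both lay below the controls in all 3 libraries, by margins that were small for K3 in Sema3a and for K2 in Sema3e. Sema3f, a ligand of neuropilin 2, was set apart by 1 library: it was at 13.6 TPM in K1 and between 23.4 and 27.2 TPM in the other 4.

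Among the 13 membrane-bound semaphorins, the fold change was positive for 3 and negative for 10, with a median of -0.13, and all 13 lay within 0.5 of zero on the log2 scale. Several differed more within the labelled knockout group than between groups. Sema6a, a ligand of class A plexins, was at 22.1 and 27.0 TPM in the controls, 15.3 TPM in K1 and 34.0 and 45.0 TPM in K2 and K3. Its relative Sema6d followed the same order, with 18.4 and 23.5 TPM in the controls, 16.4 TPM in K1 and 25.4 and 32.8 TPM in K2 and K3. K1 was thus the lowest library and K3 the highest for both, and without K1 their log2 fold changes were 0.66 and 0.45 instead of 0.22 and 0.19. Sema4d, a membrane semaphorin of lymphocytes that binds Plexin-B1, ran the other way: 14.7 and 14.3 TPM in the controls, 20.4 TPM in K1 and 9.91 and 6.78 TPM in K2 and K3. Its log2 fold change was -0.35, and -0.75 without K1. Sema4a, Sema6b and Sema6c lay below both controls in all 3 libraries, with log2 fold changes of -0.32, -0.48 and -0.20, while Sema4c, Sema4f, Sema4g, Sema5b and Sema7a overlapped between groups. Over all 20 semaphorins the median log2 fold change was -0.17, beside -0.022 over all tested genes. It was -0.093 without K1 and -0.067 without K3. Their summed level was 478 and 502 TPM in C2 and C3 and 479, 539 and 548 TPM in K1, K2 and K3.

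The 8 ephrins were at means of 5.47 to 40.0 TPM. Efnb1, the leading one and X-linked, was at 33.2 and 37.2 TPM in the controls against 42.9, 49.4 and 37.3 TPM in K1, K2 and K3, where K3 all but equalled C3 (log2 fold change 0.28, standard error 0.18, limma adjusted p 0.509). Efnb2, a marker of arterial endothelium that is also made by mesenchyme, was at 28.9 and 32.6 TPM in the controls, 23.2 TPM in K1 and 35.8 and 34.5 TPM in K2 and K3. Its groups overlapped, and the difference was close to zero (log2 fold change -0.0034, standard error 0.23, limma adjusted p 0.995). Efna1 overlapped as well, at 21.2 and 24.7 TPM in the controls against 19.2, 25.4 and 20.6 TPM in K1, K2 and K3 (log2 fold change -0.084, limma adjusted p 0.852).

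Efna2 was the ephrin with the smallest p. Its level was 22.1 and 17.9 TPM in the controls against 11.5, 12.8 and 15.6 TPM in K1, K2 and K3, below both controls in all 3 (log2 fold change -0.56, standard error 0.21, limma unadjusted p 0.0338 and adjusted p 0.342). Efnb3 was at 12.8 and 12.3 TPM in the controls against 7.81, 6.19 and 11.4 TPM in K1, K2 and K3, also below both (log2 fold change -0.55, limma adjusted p 0.413). For Efna3 and Efna4 the controls themselves differed 1.89-fold and 2.36-fold, and the groups overlapped for both, as they did for Efna5. Over the 8 ephrins the median log2 fold change was -0.10, with 2 positive and 6 negative values. It was positive without K1 (0.018, with 4 values of each sign) and without C3 (0.011).

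Of the receptors, plexins were led by Plxnb2, a receptor of class 4 semaphorins such as Sema4c. It was at 118 and 115 TPM in the controls against 111, 114 and 131 TPM in K1, K2 and K3. The groups overlapped (log2 fold change 0.024, standard error 0.16, limma adjusted p 0.948). The value was negative, -0.11, after quantile normalization. Plxnb2 alone held between 39.0% and 48.1% of summed plexin TPM. Plxnd1, which pairs with Sema3c and Sema3e, was at 43.0 and 53.6 TPM in the controls, 42.2 TPM in K1 and 30.2 and 26.6 TPM in K2 and K3. All 3 lay below both controls, K1 by less than 1 TPM (log2 fold change -0.55, standard error 0.24, limma adjusted p 0.370).

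Plxna4, a class A plexin that works with neuropilin 1 and also binds class 6 semaphorins, had the smallest p of all members. It was at 51.6 and 26.8 TPM in the controls against 15.9, 18.9 and 19.5 TPM in K1, K2 and K3. The 3 libraries lay close together and below both controls, but the controls differed 1.92-fold from each other (log2 fold change -1.005, standard error 0.29, limma unadjusted p 0.010, adjusted p 0.238). The controls averaged 39.2 ± 17.5 TPM (SD, n = 2), the others 18.1 ± 1.91 TPM (SD, n = 3). Without C2 the log2 fold change was -0.55, and without C3 it was -1.46. An antisense transcript, Plxna4os3 in GENCODE M21, overlaps exons of Plxna4, and whether reads were assigned by strand is not given in the sources used here.

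The other class A plexins were nearer to the controls or above them. Plxna2 was at 6.47 and 6.85 TPM in the controls, below the 7.72, 12.9 and 8.89 TPM in K1, K2 and K3 (log2 fold change 0.47, limma adjusted p 0.444). Plxna1 and Plxna3 overlapped between groups, with log2 fold changes of -0.17 and -0.12, and so did the class B plexin Plxnb1. Plxnc1, the receptor of Sema7a, was at 14.0 and 14.1 TPM in the controls against 15.8, 19.7 and 23.2 TPM in K1, K2 and K3 (log2 fold change 0.43, limma adjusted p 0.412). Its ligand Sema7a ranged from 13.3 to 25.5 TPM within the controls alone. Plxnb3, a receptor of Sema5a, was the lowest plexin, at 2.78 and 3.69 TPM in the controls against 2.15, 1.72 and 1.27 TPM in K1, K2 and K3.

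**Figure D2:**
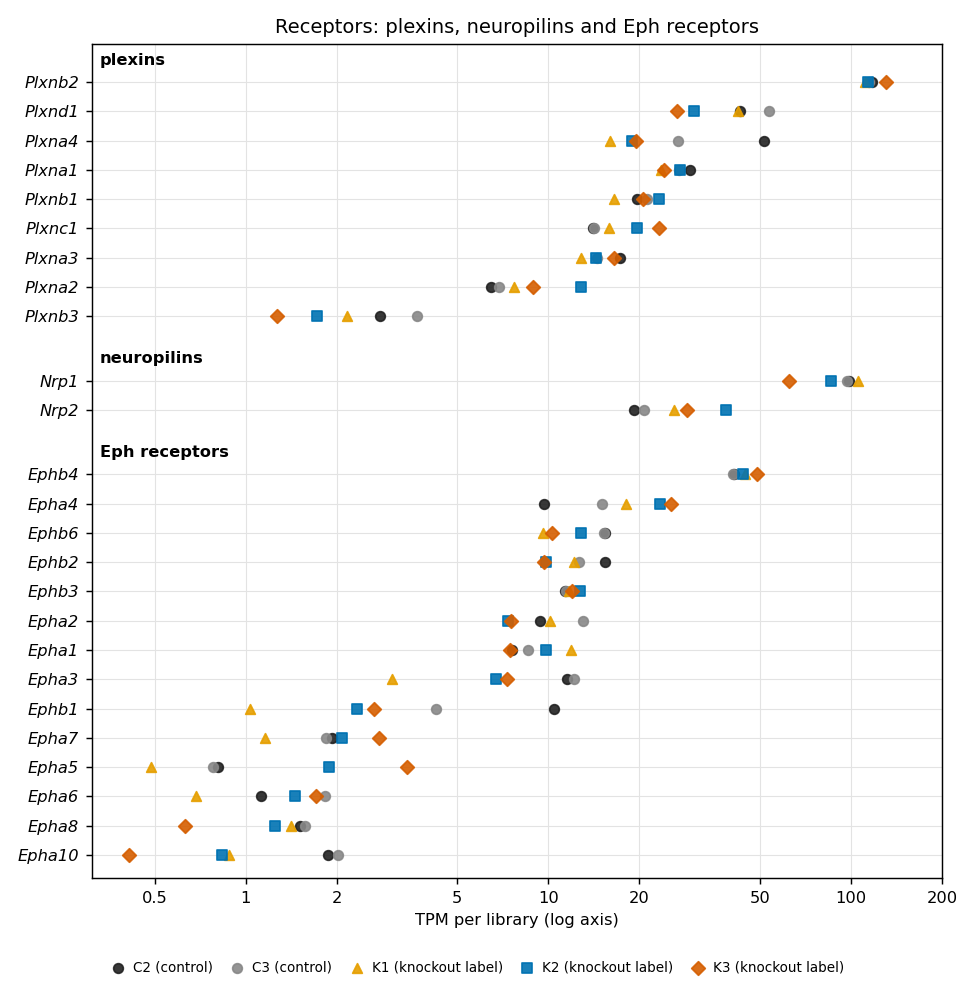
TPM per library (log axis) for the 9 plexins, 2 neuropilins and 14 Eph receptors, ordered by mean level within each family. Symbols are as in the ligand plot. Plxnb2 and Nrp1 lead, and Epha3, Ephb1 and Epha10 have all 3 labelled knockout libraries to the left of both controls.

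Both neuropilins, which also bind VEGF proteins, were expressed, and Nrp1 was the higher in every library. Nrp1 was at 98.6 and 96.8 TPM in the controls, 106 TPM in K1, 86.0 TPM in K2 and 62.6 TPM in K3. Nrp2 was at 19.2 and 20.7 TPM in the controls against 25.99, 38.6 and 28.8 TPM in K1, K2 and K3. Nrp2 lay above both controls in all 3 libraries (log2 fold change 0.60, standard error 0.21, limma unadjusted p 0.0265, adjusted p 0.324), whereas Nrp1 did not separate the groups (-0.24, standard error 0.23, limma adjusted p 0.643). The Nrp1 value was -0.41 without K1 and -0.036 without K3. Nrp2 made up 16.3% and 17.6% of summed neuropilin TPM in C2 and C3 and 19.8%, 31.0% and 31.5% in K1, K2 and K3. Lymphatic markers, which go with Nrp2 in many tissues, summed to 47.9 and 38.6 TPM in C2 and C3 and to 45.5, 71.5 and 50.6 TPM in K1, K2 and K3. Of these 3 markers, Prox1 and Flt4 lay above both controls in all 3 libraries and Lyve1 did not. Their part in the Nrp2 values was not tested.

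Eph receptors were led by Ephb4, the receptor of ephrin-B2 on venous endothelium. It was at 41.2 and 40.8 TPM in the controls against 44.6, 43.9 and 49.1 TPM in K1, K2 and K3 (log2 fold change 0.16, standard error 0.15, limma adjusted p 0.638). Ephb4 shares exon positions with Zan on the opposite strand, which was at a mean of 1.49 TPM. Epha4, which can bind ephrins of both types, was the second in level, at 9.71 and 15.0 TPM in the controls against 18.1, 23.3 and 25.5 TPM in K1, K2 and K3. It lay above both controls in all 3 libraries (log2 fold change 0.82, standard error 0.25, limma unadjusted p 0.0143, adjusted p 0.271), the largest positive value among the 53 genes in this fit. Means were 12.4 ± 3.77 TPM in the controls (SD, n = 2) and 22.3 ± 3.80 TPM in the libraries labelled knockout (SD, n = 3), and without C2 the log2 fold change was 0.53. The third, Ephb6, which lacks kinase activity, was at 15.4 and 15.2 TPM in the controls against 9.58, 12.8 and 10.2 TPM in K1, K2 and K3 (log2 fold change -0.47, standard error 0.20, limma adjusted p 0.374).

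On the log2(TPM + 1) scale the most negative differences were those of Ephb1 and Epha3, the latter close to that of Plxna4 (-1.005). Ephb1, a receptor of B-type ephrins, was at 10.4 and 4.27 TPM in the controls against 1.03, 2.33 and 2.66 TPM in K1, K2 and K3. Both controls lay above the other libraries but themselves differed 2.44-fold (log2 fold change -1.41, standard error 0.42, limma unadjusted p 0.0127, adjusted p 0.261). The controls averaged 7.35 ± 4.36 TPM (SD, n = 2), the others 2.01 ± 0.863 TPM (SD, n = 3). Without C2 the value was -0.85, and without C3 it was -1.97. Epha3, a receptor of A-type ephrins found in mesenchyme, had close controls at 11.6 and 12.2 TPM and was at 3.05, 6.72 and 7.28 TPM in K1, K2 and K3 (log2 fold change -1.01, standard error 0.34, limma unadjusted p 0.0217, adjusted p 0.306). K1 was the lowest library for both genes, and without it the values were -1.15 for Ephb1 and -0.69 for Epha3. Exons of Ephb1 also overlap an antisense transcript, Gm26846. Epha10, a low gene without a functional kinase, was at 1.87 and 2.02 TPM in the controls against 0.879, 0.837 and 0.412 TPM in K1, K2 and K3 (log2 fold change -0.80, limma adjusted p 0.329). With a pseudocount of 0.1 in place of 1 its log2 fold change was -1.40, beside -1.14 for Epha3. Epha10 shares exon positions with 1700125G02Rik on the opposite strand, at a mean of 1.83 TPM.

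Over the 14 Eph receptors the median log2 fold change was -0.21, with 6 positive and 8 negative values, and the groups did not overlap for 9 of them, 3 above and 6 below, beside 33.9% of all tested genes (11.9% above and 21.9% below). The 9 include the 5 EphB receptors, with Ephb3 and Ephb4 above the controls and Ephb1, Ephb2 and Ephb6 below, and for Ephb3 the nearest libraries were at 11.4 and 11.7 TPM. Epha5, Epha6, Epha7 and Epha8 were low, at means of 1.27 to 1.95 TPM, and of these only Epha8 lay below both controls in all 3 libraries. Epha5 was at 0.809 and 0.779 TPM in the controls, 0.487 TPM in K1 and 1.88 and 3.42 TPM in K2 and K3. Epha1 and Epha2 overlapped between groups. Exons of Epha1 overlap those of Zyx, at a mean of 100.2 TPM, on the opposite strand, so its level is uncertain. The summed level of Eph receptors differed little among libraries, at 139 and 141 TPM in C2 and C3 and 127, 136 and 140.4 TPM in K1, K2 and K3.

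The log2 fold change lay within 0.5 of zero for 22 of 28 ligands and 16 of 25 receptors, beside 71.7% of all tested genes, and whether ligands and receptors differ was not tested. No ligand and 3 receptors, Plxna4, Ephb1 and Epha3, reached an absolute value of 1, which 7.02% of all tested genes did.

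**Figure D3:**
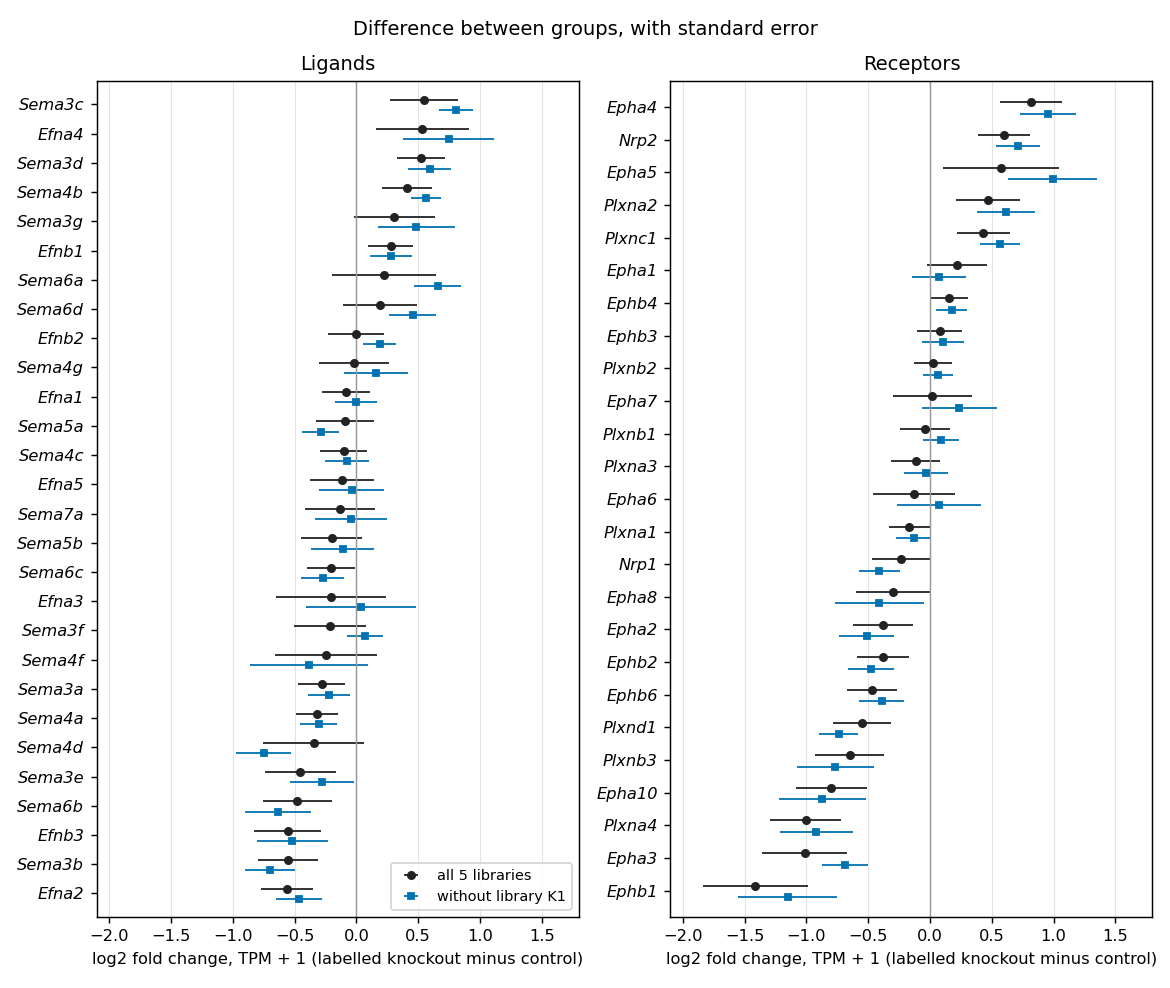
Log2 fold change of TPM + 1, labelled knockout minus control, with its standard error, for the 28 ligands (left) and 25 receptors (right). Black circles are the fit to all 5 libraries and blue squares the fit without K1. With all 5 libraries, Epha4 (0.82) and Ephb1 (-1.41) are at the ends.

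Libraries K1 and K3 each lay at an end of the range for many members. K1 was the lowest of the 5 libraries for 22 of the 53, beside 30.7% of all tested genes, and the highest for 4, beside 8.32%. K3 was the lowest for 13 and the highest for 14, counts that were not made over all genes. Within the labelled knockout group the highest library exceeded the lowest more than 1.5-fold for 29 members. Between K2 and K3 alone it did so for 8, and between the controls for 9. A range over 3 libraries is wider by construction than a range over 2, and these counts were not made over all genes. The fit was also run without K1, which leaves 2 libraries against 2. K1 was the only library labelled knockout with Esr1 below the controls. This fit thus sets the controls against K2 and K3, which go against their label on Esr1 level. In that fit 3 members had an adjusted p under 0.05, 5.66% of the 53, beside 7.98% of 19106 genes tested, so the share was not above the background. By direction, 2 members were higher (background 5.35%) and 1 lower (background 2.63%). Sema3c (log2 fold change 0.81, standard error 0.14, limma adjusted p 0.0300) and Sema4b (0.56, standard error 0.12, adjusted p 0.0440) were higher in K2 and K3. Plxnd1 was lower (-0.74, standard error 0.16, adjusted p 0.0462). With the mouse number as a block, a fit that rests on mice 2 and 3 alone, Epha4 (0.95, limma adjusted p 0.0321) and Sema6a (0.66, adjusted p 0.0448) passed in addition. The 5 members that passed there are 9.43% of the 53, beside 9.63% of all tested genes, so this share too was near the background. With library weights 0 members passed, beside 3.4% of all tested genes (1.35% higher and 2.05% lower), and 19 (35.8%) had an unadjusted p under 0.05, beside 28.1% of all tested genes.

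The values that separate K2 and K3 from the rest were set beside the marker lists, since the same libraries differ in them. Of 10 epithelial markers, 9 lay above both controls in K2 and K3, and 7 lay below both in K1. Of the 53 members, 16 (30.2%) lay above both controls in K2 and K3, beside 34.5% of all tested genes. For 5 of these (9.43%, beside 13.2% of all genes) K1 lay below both controls as well: Efnb2, Epha5, Epha7, Sema6a and Sema6d. Both shares were below those of all genes. Immune markers (8 genes) summed to 888 and 942 TPM in C2 and C3 and to 694, 501 and 264 TPM in K1, K2 and K3, with 7 of 8 below both controls in all 3 libraries. The exception was the T-cell gene Cd3e, at 9.76 and 13.7 TPM in the controls, 35.9 TPM in K1, 17.2 TPM in K2 and 2.57 TPM in K3. Sema4d was likewise highest in K1 and lowest in K3, whereas the other 7 immune markers lay below both controls in K1. Mesothelial markers (4 genes) summed to 508 and 405 TPM in the controls and to 154, 227 and 245 TPM in K1, K2 and K3, with K1 lowest. Endothelial markers (8 genes) summed to 212 and 237 TPM in the controls and to 182, 266 and 160.5 TPM in K1, K2 and K3, and Schwann and neural markers (6 genes) to 14.6 to 86.0 TPM over the 5 libraries, of which S100b made up 72.2 TPM in K3. Ciliated-cell markers (5 genes) ranged from 245 to 411 TPM in sum and smooth muscle markers (6 genes) from 366 to 551 TPM. No marker of these lists was at 0 in any library. The part of these cell types in the values of the members was not tested.

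**Figure D4:**
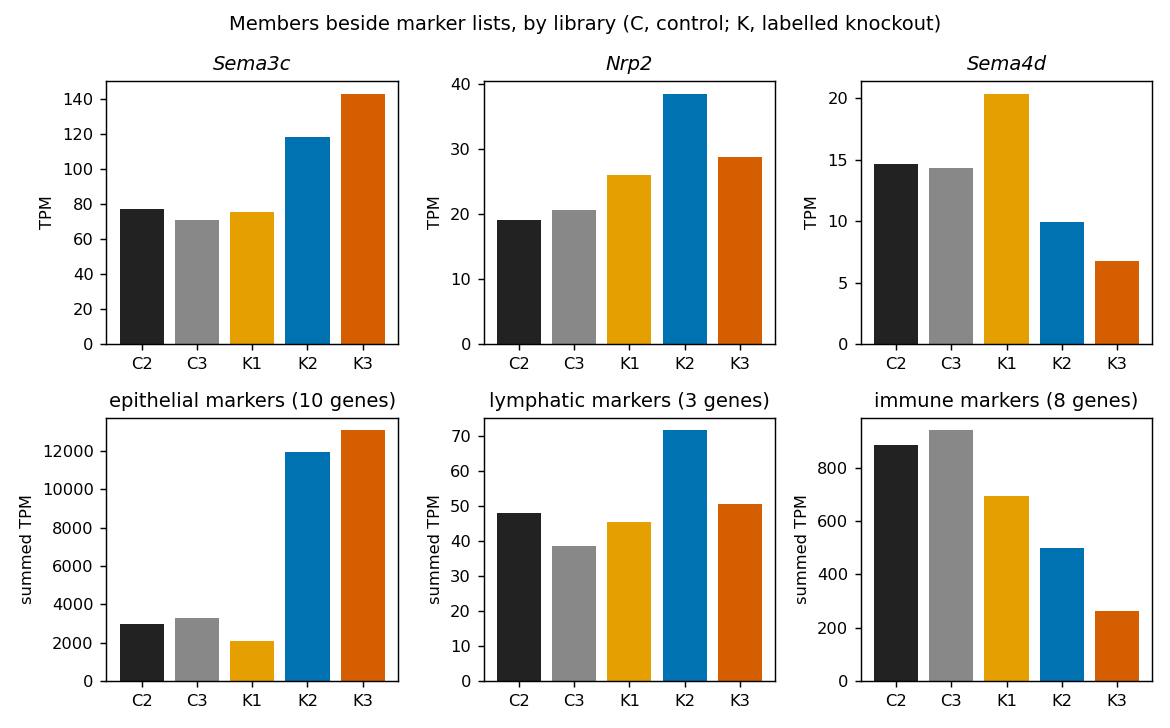
TPM of Sema3c, Nrp2 and Sema4d (top) and summed TPM of epithelial, lymphatic and immune markers (bottom) in each library, on linear axes from 0. Sema3c and epithelial markers are high in K2 and K3, Nrp2 and lymphatic markers are highest in K2, and Sema4d and immune markers are lowest in K3. In K1, Sema4d is highest while the immune sum lies below both controls, and Nrp2 lies above both controls while the lymphatic sum lies between them.

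Genes that carry the signal inside the cell or modify it were taken from a list of 58 partners of plexins and Eph receptors, among them collapsin response mediators, MICAL proteins, adaptors and kinases. All 58 were tested and 0 had an adjusted p under 0.05 (limma, background 0.0259%). None of the 58 was higher at an unadjusted p under 0.05 (background 3.7%), and 3, or 5.17%, were lower (background 9.87%). The median log2 fold change was 0.0014, and between -0.057 and 0.049 over the alternatives. Fyn, a Src-family kinase that acts below Plexin-A receptors, was at 87.9 and 63.3 TPM in the controls against 45.0, 40.4 and 42.7 TPM in K1, K2 and K3. It lay below both controls in all 3 libraries (log2 fold change -0.79, limma unadjusted p 0.00434, adjusted p 0.198). Rnd1, a small GTPase that binds plexins, was at 5.44 and 5.08 TPM in the controls against 3.03, 2.36 and 2.58 TPM in K1, K2 and K3 (log2 fold change -0.78, adjusted p 0.263 in limma). Its relative Rnd2 was at 17.4 and 18.6 TPM in the controls against 9.41, 14.9 and 12.3 TPM in K1, K2 and K3 (log2 fold change -0.55, adjusted p 0.368 in limma). Without K1, 8 of the 58 passed, 13.8%, beside 7.98% of all genes. Of these, 7 were higher (background 5.35%) and Fyn was lower (-0.83, limma adjusted p 0.0452, background 2.63%). Named after their values were seen, the 7 were Chn1, Nck2, Gsk3b, Cdk5, Nck1, Limk2 and Src. With library weights Fyn alone passed (limma adjusted p 0.0482), 1.72% of the 58 beside 3.4% of all genes. With the block, which like the fit without K1 rests on mice 2 and 3, Fyn had the same log2 fold change, -0.83 (limma adjusted p 0.0321). Chn1, Nck2, Gsk3b, Cdk5, Nck1, Limk2 and Mras also passed there, beside 9.63% of all tested genes.

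Promoter sequences were read because estrogen receptor alpha binds DNA at pairs of the motif GGTCA. They are shown for Sema3c and its receptors Nrp2 and Plxnd1, which lay on different sides of the controls, and for the Eph receptors Epha4 and Epha3, which lay on opposite sides of the controls. Each is the 250 bases before the RefSeq transcription start, on GRCm38.p6, the patch series of the mm10 build that the submitters' processing notes name. The intervals are chr5:17574566-17574815, plus strand, for Sema3c, chr1:62703067-62703316, plus strand, for Nrp2, chr6:115995006-115995255, minus strand, for Plxnd1, chr1:77515089-77515338, minus strand, for Epha4, and chr16:63864176-63864425, minus strand, for Epha3. Capitals mark GGTCA or its reverse complement TGACC, and the GC box GGGCGG or its reverse complement CCGCCC.
Sema3c: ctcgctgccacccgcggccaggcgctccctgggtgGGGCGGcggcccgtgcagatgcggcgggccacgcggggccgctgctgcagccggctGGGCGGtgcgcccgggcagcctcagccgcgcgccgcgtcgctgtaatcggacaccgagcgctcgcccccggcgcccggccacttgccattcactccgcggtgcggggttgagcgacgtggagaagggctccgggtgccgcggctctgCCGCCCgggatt
Nrp2: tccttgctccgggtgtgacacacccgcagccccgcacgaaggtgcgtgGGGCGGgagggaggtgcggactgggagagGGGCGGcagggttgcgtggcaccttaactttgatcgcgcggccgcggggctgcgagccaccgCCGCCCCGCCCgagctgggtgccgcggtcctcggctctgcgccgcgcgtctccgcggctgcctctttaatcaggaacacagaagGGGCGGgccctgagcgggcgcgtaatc
Plxnd1: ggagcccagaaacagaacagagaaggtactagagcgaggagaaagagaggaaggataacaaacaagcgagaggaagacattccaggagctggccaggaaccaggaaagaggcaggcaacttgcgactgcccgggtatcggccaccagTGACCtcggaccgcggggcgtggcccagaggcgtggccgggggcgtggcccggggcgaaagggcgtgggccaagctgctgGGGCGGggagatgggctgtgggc
Epha4: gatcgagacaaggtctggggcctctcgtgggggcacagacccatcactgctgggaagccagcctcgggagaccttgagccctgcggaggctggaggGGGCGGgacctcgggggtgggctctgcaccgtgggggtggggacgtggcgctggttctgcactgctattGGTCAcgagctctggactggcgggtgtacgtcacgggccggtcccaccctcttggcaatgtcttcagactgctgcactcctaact
Epha3: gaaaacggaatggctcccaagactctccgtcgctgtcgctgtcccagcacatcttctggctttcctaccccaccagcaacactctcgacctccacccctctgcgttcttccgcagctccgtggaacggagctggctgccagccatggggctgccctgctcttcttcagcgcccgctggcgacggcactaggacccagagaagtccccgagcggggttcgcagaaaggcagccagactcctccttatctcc
GGTCA or TGACC was found 1 time in Plxnd1 and 1 time in Epha4, and not in the stretches of Sema3c, Nrp2 and Epha3. GC boxes were found 3 times in Sema3c, 5 times in Nrp2, counting overlapping matches, and 1 time each in Plxnd1 and Epha4. Epha3 has neither motif in this stretch.

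The same letters were counted on both strands in all promoters of 300 bases, from 250 before to 50 after a start. RefSeq promoters were matched for 47 of the 53 members, with 61 start sites, and none for Efnb3, Plxna1, Plxna4, Sema3b, Sema3f and Sema6a. The full element GGTCANNNTGACC was in 0 of the 61 and in 0.0700% of 32851 promoters of all genes. GGTCA or TGACC was in 36.1% of members' promoters and 40.5% of all. The GC box was in 75.4% of members' promoters, 35.7% of all and 46.2% of those of protein-coding genes. These are descriptions of letters in a short window, with no measure of binding.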

How the data were processed

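Members were found by symbol in the 1 deposited table, and they and the gene lists were chosen with earlier results of these data known. The deposited values are TPM per gene, scaled by the authors to 1000000 in each library, and the table's own name mentions STAR, an aligner. The genome build is mm10, per the submitters' processing notes. The STAR version, the counter, the annotation and strand handling are not given in the sources used here. RNA had been prepared from sorted cells and made into libraries with a low-input SMARTer kit, per the labels' protocols. Each library came from 1 mouse, and its group and mouse number follow its title. TPM is a share of the library: Rpph1, a non-coding RNA, took 13.1% to 22.3% of it.

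The fit used limma 3.58.1 (R 4.3.3) on log2(TPM + 1), with lmFit, eBayes with trend and a single term for genotype. It covered the 19292 genes with 1 TPM or more in 2 or more libraries. Tests were two-sided, with Benjamini-Hochberg adjustment over all of them and a threshold of 0.05. Fold changes on this scale understate the change of low genes. No test was made over a family. In data simulated for this comparison with 200 genes altered, 0% were recovered where the change was 1 log2 unit (18960 genes tested), 95.5% where it was 2 (18923 tested) and 100% where it was 3 (18961 tested). Unaltered genes called in these were 1, 13 and 28. Altered genes were at about 5 TPM or more, whereas 11 of the 53 members had means under 5 TPM. The simulated noise was independent between libraries.

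Named with values in every library were members past the threshold, those with an unadjusted p under 0.05 and an absolute log2 fold change of at least 1, the 3 highest in each of semaphorins, plexins with neuropilins, ephrins and Eph receptors, Esr1, and the 3 partners with the smallest p. Other members were named after their values were seen. Exon overlaps come from GENCODE M21, and promoters from RefSeq. Python 3.11.15, pandas 2.3.3 and matplotlib 3.10.9 were used. Alternatives were another pseudocount, other filters, scalings and variance models, weights per library, a block for mouse number and leaving out each library.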

Additional observations from a re-analysis of the deposited data

How the results depend on the processing

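The finding of 0 members with an adjusted p under 0.05 held in all alternatives but 2, the fit without K1 (3 members, so the fits without 1 library ranged from 0 to 3) and the replicate block (5 members). The block rests on mice 2 and 3 alone, since mouse 1 has no partner. Across 19292 genes, same-numbered libraries deviated from their group means with r of -0.060 (mouse 2) and -0.072 (mouse 3). With 2 controls, the deviation of 1 mirrors that of the other, so these values are not independent. They cannot show whether same-numbered libraries share more than a number. Over all genes, 2 were called higher and 3 lower. The higher count was 0 with a pseudocount of 0.1, a mean TPM of at least 5, quantile normalization, median-of-ratios scaling and eBayes without trend, 1 with no filter on low values, 260 with library weights, 1165 with the block and 0 to 1022 without 1 library. The lower count was 0 with a pseudocount of 0.1 and a mean TPM of at least 5 (at limma's unadjusted threshold of 0.05, 2233 and 1389 genes in either direction), 5 without Rpph1 and Rn45s, 396 with library weights, 693 with the block and 0 to 502 without 1 library. The lone control left when C2 or C3 is dropped is assumed to vary like the other group. Genes at an unadjusted p under 0.05 were 713 higher and 1904 lower, 1139 and 1386 after quantile normalization and 1289 and 1711 after median-of-ratios scaling. Members at that threshold were 8, 10 (18.9%, beside 13.1% of all genes) and 13 (24.5%, beside 15.6%). With a mean TPM of at least 5 they were 8 of 42 (19.0%, beside 11.0%). Leaving out Rpph1 and Rn45s gave 11 members (20.8%, beside 15.2%), and leaving out K2 gave 6 (11.5%, beside 12.9%). Without C2, 1 member (1.92%) had an unadjusted p under 0.05, beside 5.61% of all genes, and without C3, 3 members (5.77%) beside 5.81%.

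The median log2 fold change of Eph receptors, -0.21, was 0.042 after quantile normalization and ranged from -0.30 to -0.0020 without 1 library. That of ephrins, -0.10, was 0.018 with the replicate block, and that of semaphorins, -0.17, was -0.070 with library weights. Leaving out 1 library moved the log2 fold change of 37 of the 53 members by over 1.5 times or turned its sign. For single genes, 796 alternative values were computed: 729 had the sign of the main value and stayed on its side of the threshold, 11 passed it and 56 changed sign, none of them past the threshold. With library weights the changed signs were Efnb2 0.14, Efna1 0.029, Esr1 0.15, Plxnb1 0.079, Sema3f 0.015 and Sema4g 0.18. Median-of-ratios scaling gave Efnb2 0.042, Plxnb1 0.0060 and Sema4g 0.017. Quantile normalization gave Plxnb2 -0.11, Epha6 0.29, Epha8 0.17, Sema4f 0.20, Sema4g 0.18 and Sema5b 0.049. The replicate block gave Efnb2 0.19, Esr1 0.57, Pdgfra -0.074, Efna3 0.038, Epha6 0.074, Plxnb1 0.089, Sema3f 0.068 and Sema4g 0.16. Leaving out Rpph1 and Rn45s gave Plxnb2 -0.036 and Epha7 -0.030.

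Without 1 library at a time, the values that changed sign ranged from -0.20 to 0.021 for Efna1 and -0.60 to 0.18 for Efna3. The values ranged from -0.33 to 0.093 for Efna5, -0.11 to 0.19 for Efnb2, -0.34 to 0.076 for Epha6 and -0.16 to 0.24 for Epha7. They ranged from -0.68 to 0.57 for Esr1, -0.074 to 0.35 for Pdgfra, -0.24 to 0.0054 for Plxna3, -0.14 to 0.089 for Plxnb1, -0.046 to 0.069 for Plxnb2, -0.41 to 0.068 for Sema3f and -0.095 to 0.71 for Sema3g. For the other semaphorins they were -0.25 to 0.046 for Sema4c, -0.55 to 0.093 for Sema4f, -0.20 to 0.16 for Sema4g, -0.29 to 0.070 for Sema5a, -0.090 to 0.66 for Sema6a, -0.025 to 0.45 for Sema6d and -0.58 to 0.31 for Sema7a. The cause was not tested. TPM keeps no depth, so how many reads lie behind the lowest members, such as Epha10 and Epha5, is unknown.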
